A study of Mus musculus with 8 samples.

Results

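CC chemokines are small secreted proteins that draw leukocytes into inflamed tissue, and 10 of them that are known from allergic lungs were examined in whole-lung RNA, out of 23469 genes in the count table. They were chosen by name, through the Entrez identifiers of the table, as Ccl11, Ccl24, Ccl17, Ccl22, Ccl2, Ccl7, Ccl8, Ccl12, Ccl6 and Ccl9. The lungs came from C57BL/6 wild type (WT) mice and DDAH1-transgenic (TG) mice, which carry an extra gene for dimethylarginine dimethylaminohydrolase 1, the enzyme that breaks down asymmetric dimethylarginine, an inhibitor of nitric oxide synthases. WT and TG mice received either 50 µl of PBS alone or 100 µg of house dust mite extract (HDM) in 50 µl of PBS into the trachea, 3 times a week for 3 weeks, and lungs were taken 24 h after the last challenge. The promoter and species of the transgene and the age of the mice are not given in the sources used here. Each of these 4 groups was sequenced as 2 libraries prepared from a single pool of lung RNA from 4 mice. Errors and p-values below thus measure how these technical libraries vary, and differences from mouse to mouse are not covered.

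Several facts of the libraries touch the results. Ddah1, the mouse gene for the enzyme that the transgene encodes, stood at 47.7 and 34.3 CPM (counts scaled to a common library size) in the WT PBS libraries, 76.9 and 53.8 in the TG PBS libraries, 43.1 and 44.7 in the WT HDM libraries and 34.9 and 33.4 in the TG HDM libraries. It was therefore not higher in the HDM-treated libraries labelled TG than in those labelled WT, and the difference did not pass the test (log2 fold change -0.32, adjusted p = 0.637). Because the species of the transgene is not given, whether these mouse gene counts include its transcripts is not known. Genotype is used below as the labels give it. Ddx3y, a gene of the Y chromosome, had 621 to 719 counts in each PBS library and 2 or 3 in each HDM library, while Xist, which is expressed from the inactive X chromosome, rose from between 11.3 and 20.8 CPM to between 2048 and 3040 CPM, so that HDM treatment and sex cannot be told apart in either genotype. Total counts lay between 5694928 (TG HDM library 1) and 11929374. Lung epithelial markers were abundant in all libraries, with a summed level of 20908 to 71899 CPM. Markers of skeletal muscle summed to 41.4 and 44.2 CPM in the WT PBS libraries and to between 97.6 and 214 CPM in the other 6, and markers of thymocytes, adipocytes and neutrophils were highest in the WT PBS libraries. In whole-lung RNA, fewer cells of a type and less RNA per cell cannot be told apart.

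A chemokine acts through receptors on the cells that it attracts, and the 10 genes fall into 4 groups by receptor and origin. Ccl11 and Ccl24 encode eotaxins, the ligands of CCR3 on eosinophils. Ccl17 and Ccl22 encode ligands of CCR4, which is carried by type 2 helper and regulatory T cells, and dendritic cells and macrophages are known sources of both. Ccl2, Ccl7, Ccl8 and Ccl12 belong to the monocyte chemoattractant (MCP) group and act largely through CCR2, although mouse Ccl8 is also known as a CCR8 ligand. Ccl6 and Ccl9 encode CCR1 ligands of myeloid cells.

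The genes lie in 4 places of the mouse genome (build GRCm38, called mm10), given here as RefSeq gene spans. The MCP genes and Ccl11 lie within chr11:82035577-82116799, Ccl9 and Ccl6 at chr11:83572917-83578636 and chr11:83587886-83593087, Ccl22 and Ccl17 at chr8:94745684-94751388 and chr8:94809380-94812038, and Ccl24 at chr5:135569935-135573123. None of the 50-base stretches in the transcripts of 9 of the genes occurred in a transcript of another gene, and 1.97% of those of Ccl9 did, so that 50-base reads could be assigned to them. Promoter sequences from RefSeq (GRCm38.p6) were held for 6 of the 10 genes (Ccl17, Ccl22, Ccl8, Ccl12, Ccl6 and Ccl9), but not for Ccl2, Ccl7, Ccl11 and Ccl24. The 250 bases before the transcription start are shown for both CCR4 ligands, whose HDM response differed between the genotypes, and for the neighbours Ccl6 and Ccl9, whose ratio changed in 1 group.

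The CCR4 ligand genes are on the plus strand, and Ccl6 and Ccl9 are on the minus strand (the sequences read 5′ to 3′ on the gene's strand). Capitals mark matches, on either strand, to a STAT6-type motif (TTCNNNNGAA), a STAT-type motif with a shorter spacer (TTCNNNGAA), an NF-kappaB-type motif (GGGANNTTCC), an AP-1-type motif (TGANTCA) or a TATA box (TATAAA). The windows are chr8:94810203-94810452 for Ccl17, chr8:94745434-94745683 for Ccl22, chr11:83593088-83593337 for Ccl6 and chr11:83578637-83578886 for Ccl9. The Ccl17 window lies inside the RefSeq span given above, which begins further upstream, and its distances are counted from the downstream start, which is that of the GENCODE transcript used for its length.
Ccl17: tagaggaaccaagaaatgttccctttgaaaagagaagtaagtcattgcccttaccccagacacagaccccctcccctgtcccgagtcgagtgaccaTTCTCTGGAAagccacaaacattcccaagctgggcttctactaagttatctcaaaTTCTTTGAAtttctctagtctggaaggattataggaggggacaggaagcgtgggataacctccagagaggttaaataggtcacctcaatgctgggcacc
Ccl22: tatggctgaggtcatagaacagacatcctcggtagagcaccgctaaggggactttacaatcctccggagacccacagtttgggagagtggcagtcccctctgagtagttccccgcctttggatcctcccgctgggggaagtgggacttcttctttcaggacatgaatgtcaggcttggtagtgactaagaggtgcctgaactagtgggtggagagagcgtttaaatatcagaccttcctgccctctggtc
Ccl6: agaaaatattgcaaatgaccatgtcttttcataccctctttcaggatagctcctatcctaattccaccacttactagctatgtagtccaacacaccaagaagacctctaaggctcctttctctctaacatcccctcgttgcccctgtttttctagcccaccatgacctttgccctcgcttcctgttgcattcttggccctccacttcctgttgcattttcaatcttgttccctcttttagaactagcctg
Ccl9: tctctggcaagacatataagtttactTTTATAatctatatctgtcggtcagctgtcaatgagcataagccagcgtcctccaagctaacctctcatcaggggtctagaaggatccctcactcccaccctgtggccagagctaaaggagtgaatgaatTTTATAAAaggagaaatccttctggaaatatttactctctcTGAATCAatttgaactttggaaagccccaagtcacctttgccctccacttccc

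In the Ccl17 sequence, a STAT6-type match (TTCTCTGGAA) began 154 bases before the start and a match with the shorter spacer (TTCTTTGAA) began 99 bases before it. Among all 32851 RefSeq promoter windows of 250 bases before to 50 after the start, 6.95% held the first motif and 8.3% held the second. The Ccl22 and Ccl6 windows held none of the 5 motifs. The Ccl9 window held an AP-1-type match (TGAATCA) 53 bases before the start, a motif found in 7.81% of all windows, and TATAAA 92 bases before the start, a motif found in 13.62%. Ccl12 and Ccl8 had TATAAA 31 and 32 bases before the start. The NF-kappaB-type motif, in 1.47% of all windows, was in none of the 6. The longest run of bases shared by any 2 of the 6 windows had 13 bases (GCCCTCCACTTCC) and was held by Ccl6 and Ccl9, whereas Ccl17 and Ccl22 shared no run longer than 7 bases. These matches are descriptions of letters and were not tested for binding.

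The transcripts of all 10 chemokines were higher in WT HDM than in WT PBS lungs, from 3.68-fold for Ccl9 to 27.5-fold for Ccl8 among the 9 other than Ccl24. In this contrast, HDM treatment and sex cannot be told apart. All 10 passed the test at an adjusted p below 0.05, where 4.44% of the 15123 genes tested were called higher and 2.3% lower. The median log2 fold change of the 10 genes was 3.08, and that of all genes was 0.02. No WT HDM library overlapped a WT PBS library in any of the 10 genes, which was also the case for 49.8% of all genes tested. In TG lungs, 7 of the 9 genes tested were called higher after HDM, where 8.43% of 15086 genes were called higher and 5.35% lower, and the median of the 9 was 2.39. Ccl17 and Ccl22 did not pass, and Ccl24 had too few counts to be tested. Most of the 7 calls were lost without TG PBS library 1 and some without TG PBS library 2. Each of these fits also called far fewer of all genes, so such losses in TG lungs, here and below, are not particular to the chemokines. With one library left out, the median of the 9 ran from 1.73 to 2.48.

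**Figure D1:**
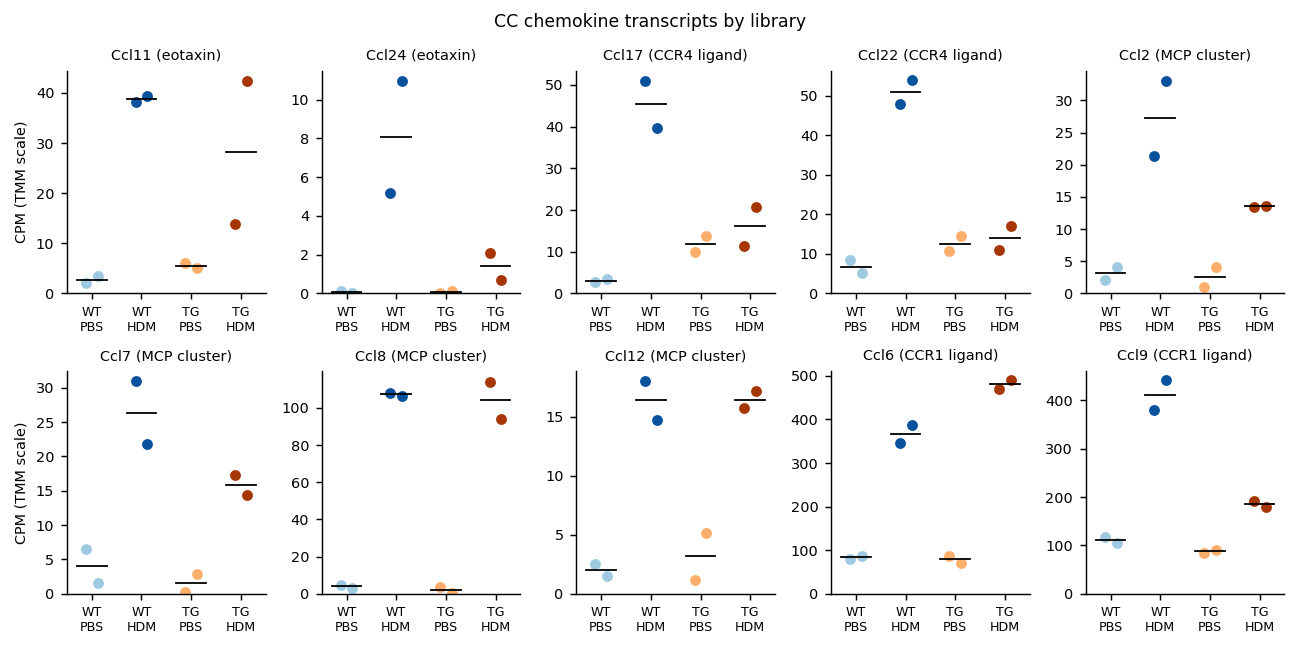
Level of each chemokine transcript in each library, in CPM on the TMM scale of all 8 libraries (vertical axis, linear, starting at 0), for WT and labelled TG lungs given PBS or HDM (horizontal axis). Points are the 2 libraries of a group and bars are their means. The Ccl17 and Ccl22 points of TG HDM lie beside those of TG PBS, while those of WT HDM lie far above WT PBS.

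Of the 10 chemokines, the CCR4 ligands were the 2 whose HDM response was called different between the genotypes by edgeR. Outside the 10, Ccl3, Ccl4 and Ccl5 were called in the same test, with the opposite sign. The level of Ccl17 was 2.61 and 3.43 CPM in the WT PBS libraries, 51.0 and 39.7 in WT HDM, 9.98 and 13.8 in TG PBS, and 11.4 and 20.8 in TG HDM. Ccl17 was thus 14.9-fold higher after HDM in WT lungs (log2 3.90 ± 0.37 SE, adjusted p = 1.34e-05), whereas the TG HDM libraries overlapped the TG PBS libraries (log2 0.46 ± 0.48, adjusted p = 0.593). The difference between these 2 responses, tested as an interaction over all 8 libraries, was -3.45 ± 0.59 on the log2 scale (adjusted p = 0.00345), that is a 10.9-fold smaller response in the TG libraries, and it passed the threshold with any one of the 8 libraries left out.

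Ccl22 had the same order of groups. Its level was 8.44 and 5.14 CPM in WT PBS, 47.9 and 53.9 in WT HDM, 10.7 and 14.5 in TG PBS, and 11.1 and 17.0 in TG HDM. The increase was 7.52-fold in WT lungs (log2 2.91 ± 0.34, adjusted p = 9.27e-05) and 1.13-fold in TG lungs (log2 0.18 ± 0.47, 95% interval -0.84 to 1.20, adjusted p = 0.854). The interaction was -2.74 ± 0.55 (adjusted p = 0.0119), and its adjusted p was 0.0806 without WT PBS library 2 and 0.0552 without TG PBS library 2. Ccl17 and Ccl22 were the 2 of the 10 chemokines called in this test, both lower (DESeq2 added Ccl9), where 0.706% of the 15868 genes tested were called lower and 1.05% higher. Skeletal muscle genes were also called lower in it, 6 of 6 of the list, and their part in the result was not tested.

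Both ends of the contrast entered this difference. Under PBS, the Ccl17 libraries of TG lungs lay above those of WT lungs (log2 1.96, 95% interval 0.77 to 3.15), but the difference did not pass over all genes (adjusted p = 0.155; 0.0477 with all 8 libraries in one fit and 0.0261 without TG PBS library 1). Under HDM, Ccl22 was 3.52-fold lower in the libraries labelled TG (log2 -1.82 ± 0.34, adjusted p = 0.0182). For Ccl17 the difference was 2.73-fold and missed the threshold (log2 -1.45 ± 0.37, adjusted p = 0.0707). The groups did not overlap, which was also the case for 48.2% of all genes tested under HDM and 40.3% under PBS. This HDM difference of Ccl17 passed in DESeq2 (adjusted p = 0.00677) and in a fit with all 8 libraries (adjusted p = 0.0397). With one library left out, the log2 difference of Ccl17 ran from -1.94 to -1.10, and its call depended on the library left out.

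**Figure D2:**
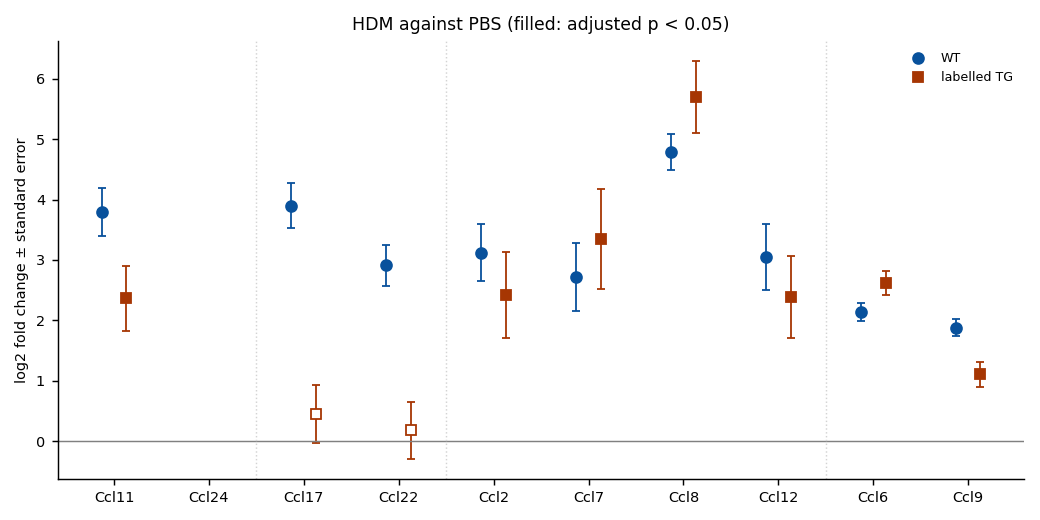
Log2 fold change of HDM against PBS for 9 chemokines (horizontal axis) in WT lungs (circles) and labelled TG lungs (squares), with standard errors from edgeR as bars; filled symbols passed an adjusted p of 0.05. Ccl24 is left out because its PBS groups hold 1 count each. Ccl17 and Ccl22 stand near 0 in TG lungs and at 3.90 and 2.91 in WT lungs.

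Ccr4, the gene of the shared receptor of Ccl17 and Ccl22, was at 3.32 and 2.12 CPM in WT PBS, 12.8 and 5.93 in WT HDM, 4.19 and 1.80 in TG PBS, and 12.9 and 4.96 in TG HDM. Its HDM libraries were above its PBS libraries in both genotypes, and neither difference passed (adjusted p = 0.136 in WT and 0.206 in TG). Dendritic cell markers, 8 genes of a cell type that can make both ligands, summed to 359 and 365 CPM in WT PBS, 468 and 509 in WT HDM, 307 and 354 in TG PBS, and 363 and 366 in TG HDM. Their sum was highest in the WT HDM libraries, where both ligands were highest, but this order rests on Itgax. Itgax was at 34.7 and 24.2 CPM in WT PBS, 223 and 209 in WT HDM, 22.1 and 28.4 in TG PBS, and 149 and 158 in TG HDM. By group means, Fscn1 and Mgl2 were also highest in WT HDM, and Flt3 was alike in both HDM groups. Xcr1 and Clec9a were highest in WT PBS, Zbtb46 in TG PBS and Cd209a in TG HDM. None of the 8 was called between the genotypes under HDM or in the interaction by edgeR or DESeq2 (3 and 1 had an unadjusted p below 0.05). Their part in the result was not tested.

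Over the 8 libraries, the genes outside the 10 whose log2 CPM was most like that of Ccl17 were Rrbp1 (r = 0.987), Acta1 (r = 0.966) and Tmem26 (r = 0.957), and for Ccl22 they were Casp8 (r = 0.981), Acta1 (r = 0.978) and Rrbp1 (r = 0.965). These are the highest of 15858 genes, the libraries of a group share a pool, and the values only describe likeness. Acta1, a skeletal muscle actin, was at 39.2 and 38.1 CPM in WT PBS, 99.6 and 103 in WT HDM, 53.5 and 61.1 in TG PBS, and 56.8 and 59.9 in TG HDM. Casp8, an initiator caspase, was at 61.4 and 58.0, 104 and 112, 73.1 and 69.9, and 71.6 and 76.3 CPM in these groups. Each of these genes stood highest in WT HDM.

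Both eotaxins rose with HDM in WT lungs and Ccl11 also in TG lungs, where Ccl24 was not tested, and neither was called between the genotypes under HDM. Ccl11 was at 2.11 and 3.43 CPM in WT PBS, 38.2 and 39.4 in WT HDM, and 5.99 and 5.07 in TG PBS. The TG HDM libraries, made from one RNA pool, disagreed, with 13.9 CPM (93 counts) in library 1 and 42.4 CPM (548 counts) in library 2. The HDM response was 13.8-fold in WT lungs (log2 3.79 ± 0.40, adjusted p = 3.25e-05) and 5.15-fold in TG lungs (log2 2.37 ± 0.54, adjusted p = 0.0135). The TG call was lost without TG PBS library 1 (adjusted p = 0.121), TG PBS library 2 (0.167) or TG HDM library 2 (0.201). The interaction did not pass (log2 -1.44, 95% interval -2.85 to -0.02, adjusted p = 0.331; 0.0425 without TG HDM library 2). Under HDM the genotype difference was -0.42 ± 0.44 (adjusted p = 0.694). It was 0.15 without TG HDM library 1 and -1.43, with an adjusted p of 0.0259, without TG HDM library 2, so that 1 library set both its sign and its call.

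The study also measured Ccl11 by quantitative PCR and reported lower expression in HDM-treated TG than in HDM-treated WT lungs. That result is a mean over separate samples of a group, whereas the libraries here come from a single RNA pool per group. The pair of primers shows which part of the transcript that assay reads. The forward and reverse primers, each printed 5′ to 3′ in full and with all bases in capitals because all of them match, are as follows.
CCL11 forward: ATGAAAGGAGATGTGGGATTATT
CCL11 reverse: TTATCCTCAGTTACTCCTAACTCG

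The primers matched 1 transcript in GENCODE, Ccl11, at bases 653 to 675 and 692 to 715 of its 1082 bases. The coding part is at bases 145 to 435, so that the amplified stretch lies after the stop codon. The methods of the study describe counts over coding regions, but Xist, which has no coding sequence, also holds counts. Whether reads of the amplified stretch were counted is therefore not known.

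Ccl24 was nearly silent in PBS lungs, with 1 count over both WT PBS libraries and 1 over both TG PBS libraries. It had 58 and 109 counts (5.18 and 10.9 CPM) in WT HDM and 14 and 9 counts (2.10 and 0.697 CPM) in TG HDM. The ratio of HDM to PBS was 175 in WT lungs (exact 95% counting interval 31.0 to 6966) and 22.9 in TG lungs (3.71 to 942), and these intervals cover counting error only. The interaction did not pass by edgeR (log2 -2.68 ± 2.68, 95% interval -8.32 to 2.95, adjusted p = 0.705). Under HDM, the libraries labelled TG were 5.75-fold lower, but the difference did not pass (log2 -2.52 ± 0.90, adjusted p = 0.182). They did not overlap those of WT, as for 48.2% of all genes tested. Chia1, an acidic chitinase gene, was among the 3 genes most like Ccl24 (r = 0.974), after H2ax (r = 0.98) and Actb (r = 0.975), and it stood at 425 and 555 CPM in WT HDM against 170 and 141 in TG HDM. For Ccl11 the most alike were Pld3 (r = 0.976), E030024N20Rik (r = 0.975) and H2-DMb1 (r = 0.972).

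Transcripts of Epx, Prg3 and Prg2, which encode granule proteins of the eosinophil, the cell that eotaxins attract, were scarce. Such transcript levels do not give numbers of eosinophils. The study counted eosinophils in lavage fluid and reported fewer in HDM-treated TG than in HDM-treated WT mice. Epx (eosinophil peroxidase) and Prg3 were at 0 in all WT libraries and in TG PBS, and in TG HDM Epx had 0 and 1 counts and Prg3 had 9 and 1. Prg2 (eosinophil major basic protein) was at 0.603 and 2.86 CPM in WT PBS, 0.804 and 7.03 in WT HDM, 0.200 and 0.740 in TG PBS, and 5.99 and 11.1 in TG HDM. Prg2 was the one eosinophil marker called by edgeR, higher after HDM in TG lungs (18.2-fold, adjusted p = 0.0143). This call was lost without TG PBS library 1 (log2 3.53), TG PBS library 2 (5.36) or TG HDM library 2 (3.66). DESeq2 called Prg2 there as well, and Alox15 after HDM in WT lungs. Alox15 was at 0.603 and 1.96 CPM in WT PBS, 7.42 and 8.13 in WT HDM, and 0.299 and 0.106 in TG PBS. Its TG HDM libraries disagreed, with 0 and 14.6 CPM (0 and 189 counts). Ccr3, the eotaxin receptor, had 138 and 16 counts in WT HDM and 22 and 0 in TG HDM. In WT lungs Ccr3 was called higher after HDM (adjusted p = 0.0494), a call lost without WT HDM library 1 (adjusted p = 0.531) and without WT PBS library 2 (0.136). The summed level of the 7 eosinophil markers in the table was 41.4 to 49.6 CPM in WT PBS, 70.9 to 77.0 in WT HDM, 52.4 to 54.3 in TG PBS and 62.3 to 81.1 in TG HDM. Most of it was Ear1, at 37.4 and 27.8 CPM in WT PBS, 50.3 and 47.9 in WT HDM, 46.5 and 42.2 in TG PBS, and 47.8 and 46.0 in TG HDM.

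The MCP genes rose with HDM in both genotypes, and none of the 4 was called between the genotypes by edgeR or DESeq2. At an unadjusted p below 0.05 there were 0 under PBS and 1, Ccl2, under HDM. The interaction called none of the 4 either, in edgeR or DESeq2, and 0 had an unadjusted p below 0.05, although Ccl8 passed it without TG PBS library 1 (log2 3.13, adjusted p = 0.0219). Ccl8 had the largest response. It was at 4.92 and 2.94 CPM in WT PBS, 108 and 106 in WT HDM, 3.59 and 0.423 in TG PBS, and 114 and 94.1 in TG HDM. The fold was 27.5 in WT lungs (log2 4.78 ± 0.30, adjusted p = 1.8e-07) and 51.9 in TG lungs (log2 5.70 ± 0.60, adjusted p = 0.000105), where TG PBS library 2 held only 4 counts. The HDM-treated groups of both genotypes overlapped, and the 95% interval of their log2 difference was -0.49 to 0.48.

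Ccl2 encodes the main ligand of CCR2 and was at 2.11 and 4.08 CPM in WT PBS, 21.4 and 33.0 in WT HDM, 0.998 and 4.12 in TG PBS, and 13.5 and 13.6 in TG HDM. It rose 8.69-fold in WT lungs (adjusted p = 0.000869) and 5.37-fold in TG lungs (adjusted p = 0.0427), and the latter call was lost when any one of the 4 libraries was left out (adjusted p from 0.0525 to 0.183). Its TG HDM libraries both lay below WT HDM (log2 -0.97 ± 0.40, 95% interval -1.84 to -0.10, adjusted p = 0.252). Of all genes tested in this comparison, 48.2% had no overlap between the groups.

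Ccl7 was at 6.53 and 1.55 CPM in WT PBS, 30.9 and 21.8 in WT HDM, 0.299 and 2.85 in TG PBS, and 17.2 and 14.4 in TG HDM. It rose 6.59-fold in WT lungs (adjusted p = 0.00941) and 10.2-fold in TG lungs (adjusted p = 0.02). Ccl12, a mouse MCP gene next to Ccl8, was at 2.51 and 1.47 CPM in WT PBS, 18.0 and 14.8 in WT HDM, 1.20 and 5.18 in TG PBS, and 15.7 and 17.2 in TG HDM. Its folds were 8.25 in WT (adjusted p = 0.00347) and 5.24 in TG (adjusted p = 0.0364), and the HDM groups overlapped. Under HDM the differences between the genotypes were -0.70 for Ccl7 (95% interval -1.55 to 0.15) and 0.04 for Ccl12 (-0.86 to 0.94). The Ccl7 call in TG lungs was lost without TG PBS library 1 (adjusted p = 0.0876), as was that of Ccl12 (0.164).

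Some monocyte markers were also higher after HDM. Of 6 markers, Ly6c2 and Csf1r were called higher in WT lungs, and these and Cd14 and Plac8 in TG lungs. F13a1 had values of the opposite sign that did not pass (log2 -0.90 in WT and -0.19 in TG). Both WT calls were lost without WT PBS library 1 (adjusted p = 0.114 for Ly6c2 and 0.187 for Csf1r), and without TG PBS library 1 only Plac8 kept its call in TG lungs (adjusted p = 0.0191), without TG PBS library 2 only Cd14 did (0.0488), and without TG HDM library 2 Ly6c2 (0.106) and Csf1r (0.176) lost theirs. The 6 markers summed to between 211 and 240 CPM in WT PBS, 331 and 344 in WT HDM, 141 and 158 in TG PBS, and 282 and 354 in TG HDM. The 6 markers of interstitial macrophages summed to between 147 and 194 CPM in PBS libraries and between 429 and 543 CPM in HDM libraries. Of these, C1qa, C1qb and C1qc, the chains of complement C1q, were called higher in both genotypes and Apoe in TG lungs (3 of 6 in WT and 4 of 6 in TG), whereas Cx3cr1 and Pf4 passed in neither. In TG lungs, without TG PBS library 1, C1qc (adjusted p = 0.0621) and Apoe (0.0855) lost the call, and without TG PBS library 2 Apoe did (0.107). The part of these cells in the rise of the chemokines was not tested.

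Ccl6 and Ccl9, which lie next to each other on chromosome 11, parted in the HDM-treated libraries labelled TG. Ccl6 was at 78.8 and 87.5 CPM in WT PBS, 346 and 388 in WT HDM, 87.3 and 71.2 in TG PBS, and 470 and 490 in TG HDM. It rose 4.41-fold in WT lungs (adjusted p = 5.49e-07) and 6.16-fold in TG lungs (adjusted p = 1.06e-05). Ccl9 was at 117 and 106 CPM in WT PBS, 380 and 443 in WT HDM, 84.2 and 91.1 in TG PBS, and 192 and 180 in TG HDM. It rose 3.68-fold in WT lungs (adjusted p = 1.54e-06) and 2.16-fold in TG lungs (adjusted p = 0.0046), and the last call was lost without either TG PBS library (adjusted p = 0.12 and 0.113).

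Under HDM, Ccl9 was 2.15-fold lower in the libraries labelled TG (log2 -1.11 ± 0.19, adjusted p = 0.00936), while Ccl6 was 1.34-fold higher and did not pass (log2 0.43 ± 0.17, adjusted p = 0.24). Ccl9 and Ccl22 were the 2 of 10 chemokines called lower in this comparison, where 0.599% of 15191 genes were called lower and 1.84% higher. Both calls were lost without either WT HDM library, and in these fits few of all genes were called. With one library left out, the log2 difference stayed negative for both genes. It ran from -1.23 to -0.98 for Ccl9 and from -2.15 to -1.57 for Ccl22.

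The ratio of Ccl6 counts to Ccl9 counts needs no scaling between libraries. It was 0.671 and 0.827 in WT PBS, 0.911 and 0.875 in WT HDM, 1.04 and 0.782 in TG PBS, and 2.45 and 2.72 in TG HDM, so that only the TG HDM libraries stood apart from the other 6. With 2 libraries against 2, an exact permutation test cannot give a p below 0.333. The transcripts differ in length, 1440 bases for Ccl6 and 3006 for Ccl9, and in the comparison of TG HDM with WT HDM libraries the median log2 difference was 0.47 for all genes in the length class of Ccl6 and -0.03 for those in that of Ccl9. The interaction of genotype and HDM was not past the threshold for either gene (log2 -0.80 for Ccl9, adjusted p = 0.104, and 0.46 for Ccl6, adjusted p = 0.378).

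Between the HDM groups, log2 fold changes of all genes fell with transcript length (Spearman's rho across 14454 genes -0.281), from a median of 0.87 for the 259 genes around 624 bases to -0.24 for the 656 genes around 9866 bases. The 10 chemokine transcripts had between 511 and 3006 bases, and 8 of 10 had a negative value, of which 2 passed and that of Ccl8 was close to 0. The length classes of the 2 called genes, Ccl22 and Ccl9, had medians of 0.06 and -0.03. Of these 10 genes, only Ccl6 lay close to the median of its length. With an offset for gene length, a smooth correction fitted in each library, Ccl17 passed as well (log2 -2.24, adjusted p = 0.0214) beside Ccl22 (-1.93, adjusted p = 0.0286) and Ccl9 (-1.11, adjusted p = 0.0201), the value of Ccl6 fell to 0.12, and that of Ccl12 turned from 0.04 to -0.69. For HDM against PBS in TG lungs, where rho was -0.331, the offset left 3 of the 7 calls (Ccl8, Ccl6 and Ccl9) and turned the values of Ccl17 and Ccl22 to -0.72 and -0.09, neither past the threshold.

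**Figure D3:**
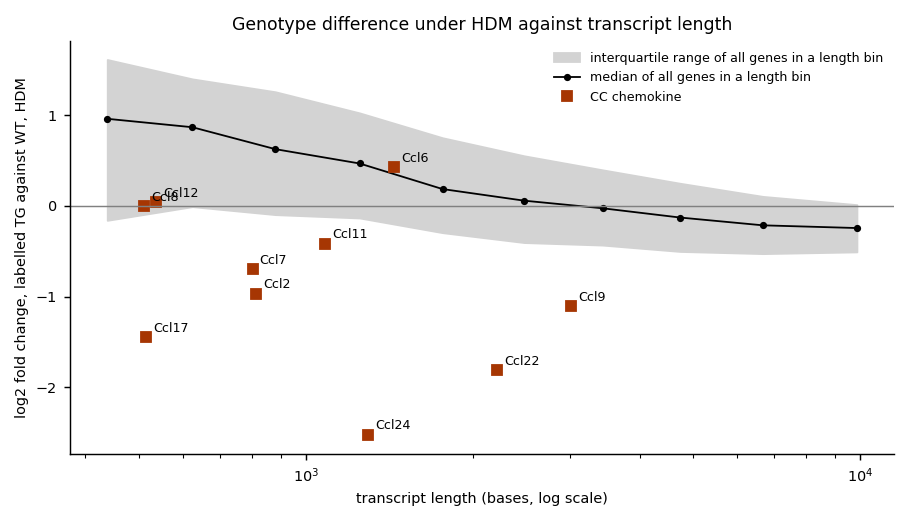
Log2 fold change of labelled TG against WT lungs under HDM (vertical axis) against transcript length in bases (horizontal axis, log scale). The line and band show the median and the interquartile range of all genes in each length bin, and squares are the 10 chemokines. The median falls from 0.96 in the shortest bin to -0.24 in the longest, and 9 of the squares lie below the line.

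Under PBS, none of the 9 chemokines tested was called between the genotypes by edgeR, where 0.281% of 14926 genes were called higher and 0.375% lower, and only Ccl17 had an unadjusted p below 0.05 (0.00283). DESeq2 also called none. The values ran from -1.37 for Ccl7 to 1.96 for Ccl17, with a median of -0.08, and transcript length had no such relation here (rho 0.013).

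**Figure D4:**
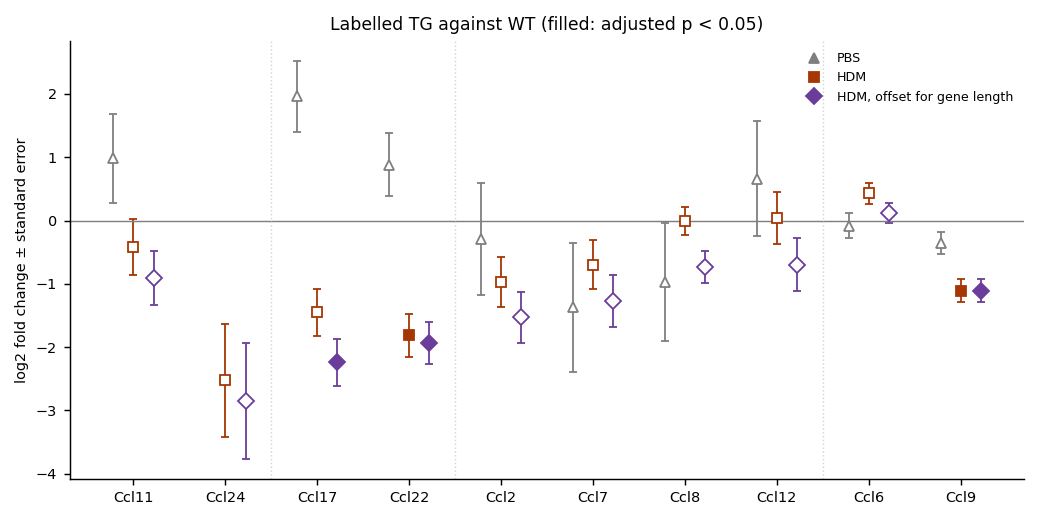
Log2 fold change of labelled TG against WT lungs for each chemokine (horizontal axis) under PBS (triangles), under HDM (squares) and under HDM with an offset for gene length (diamonds), with standard errors as bars; filled symbols passed an adjusted p of 0.05. Ccl22 and Ccl9 are filled under HDM, and Ccl17 joins them with the offset. Ccl24 was not tested under PBS.

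Levels were compared between genes as mean CPM per kilobase of transcript. In WT PBS lungs Ccl6 (57.7) and Ccl9 (37.1) led, and the other 8 lay between 0.0388 for Ccl24 and 7.69 for Ccl8. In WT HDM lungs the order was Ccl6 (255), Ccl8 (210), Ccl9 (137), Ccl17 (88.2), Ccl11 (35.9), Ccl2 (33.5), Ccl7 (32.9), Ccl12 (30.6), Ccl22 (23.0) and Ccl24 (6.23), and the neighbours Ccl11, Ccl2, Ccl7 and Ccl12 did not differ beyond their spread. In TG HDM lungs it began with Ccl6 (334), Ccl8 (204) and Ccl9 (61.8), and Ccl17 (31.3), Ccl12 (30.6) and Ccl11 (26.0) followed within their spread. This order depends on the length used. Per kilobase of coding sequence, the region that the methods of the study name for counting, the order in WT HDM lungs was Ccl9 (1124), Ccl6 (1054), Ccl8 (369), Ccl22 (184), Ccl17 (147), Ccl11 (133), Ccl7 (90.6), Ccl2 (61.4), Ccl12 (52.6) and Ccl24 (22.6), with Ccl22 above Ccl17. On this scale Ccl9 (305) stood above Ccl6 (239) in WT PBS and beside it in WT HDM, but below it in TG HDM (508 and 1380).

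The summed level of the 10 transcripts was 215 to 225 CPM in WT PBS, 204 to 208 in TG PBS, 1047 to 1151 in WT HDM and 861 to 891 in TG HDM. Ccl6 and Ccl9 made up 77.9 to 89.8% of this sum in PBS libraries and 69.3 to 76.9% in HDM libraries, so that the sum mostly follows these 2 genes.

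**Figure D5:**
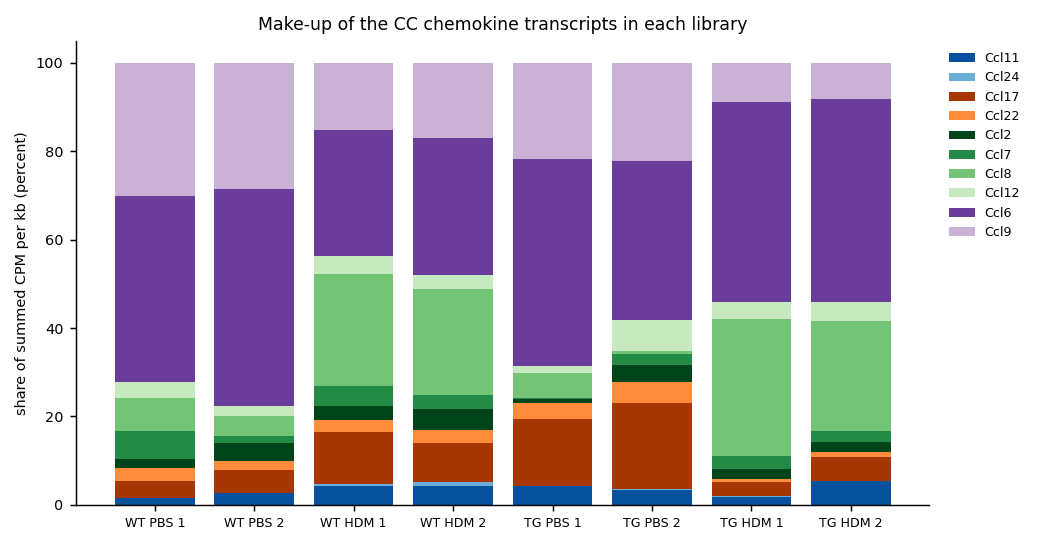
Share of each of the 10 chemokines in their summed CPM per kilobase of transcript (vertical axis, percent), for each library (horizontal axis; WT and labelled TG, PBS and HDM, libraries 1 and 2). Ccl6 (dark violet) and Ccl9 (light violet) fill most of the PBS bars, and the share of Ccl8 (light green) is wide in the 4 HDM bars.

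The other CC chemokines of the table did not share the response of WT lungs. Of 13 genes, fixed as a list with earlier results of these data known, 11 were tested, and Ccl1 and Ccl26 were at 0 in all libraries. In WT lungs none was called after HDM by edgeR, with 2 at an unadjusted p below 0.05 and 1, Ccl25, called by DESeq2. In TG lungs Ccl3, Ccl4, Ccl20 and Ccl5 were called higher, and DESeq2 added Ccl19. Ccl3 and Ccl4 encode macrophage inflammatory proteins, and their difference lay in the PBS groups. Ccl3 was at 30.0 and 42.7 CPM in WT PBS, 18.9 and 22.6 in WT HDM, 0.299 and 0.528 in TG PBS, and 20.1 and 30.3 in TG HDM. It was 86.6-fold lower in TG PBS than in WT PBS (adjusted p = 1.05e-06). Ccl4 had 40 and 79 counts in WT PBS and 0 in both TG PBS libraries (adjusted p = 0.0103; 0.127 without WT PBS library 2). In the interaction Ccl3, Ccl4 and Ccl5 were called higher by edgeR, the opposite sign to Ccl17 and Ccl22, and DESeq2 added Ccl20 and Ccl25. The call of Ccl5 (adjusted p = 0.0473) was lost when any library other than TG HDM library 1 was left out.

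Between the genotypes under HDM, DESeq2 called 3 of the 11 (Ccl5, Ccl20 and Ccl27a), and 4 had an unadjusted p below 0.05 by edgeR. The only one that edgeR called was Ccl20, the ligand of CCR6, which was higher in the libraries labelled TG. Its level was 4.56 and 4.72 CPM in WT HDM and 32.5 and 25.9 in TG HDM, a 6.45-fold difference (log2 2.69 ± 0.44, adjusted p = 0.00817). The call was lost with the offset for gene length (adjusted p = 0.0523). It was also lost without either WT HDM library, where few of all genes were called. With one library left out, the log2 difference ran from 2.50 to 2.86. The 2 members called in this comparison, Ccl22 and Ccl9, were lower.

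Some of the 10 CC receptor genes on the list also moved with HDM. In WT lungs Ccr8 was called higher (1 count in each PBS library, 75 and 30 counts with HDM, adjusted p = 0.0104), a call lost without WT PBS library 2 (0.0693) or WT HDM library 1 (0.0893). In the TG libraries Ccr8 had 6 and 19 counts with PBS and 6 and 7 with HDM. Ccr1, the receptor of Ccl6 and Ccl9, and Ccr2, the receptor of Ccl2, were called higher in TG lungs (5.97-fold, adjusted p = 0.00359, and 3.16-fold, adjusted p = 0.00466), as was Ccr6 (adjusted p = 0.00153). Both Ccr1 and Ccr2 lost the call without TG PBS library 2 (adjusted p = 0.0754 and 0.122). None of the 10 was called between the genotypes by edgeR or DESeq2, with 5 under PBS and 3 under HDM at an unadjusted p below 0.05. The interaction called none by edgeR, with 5 at an unadjusted p below 0.05, and 3 by DESeq2 (Ccr2, Ccr6 and Ccr8). The 5 atypical receptors, which bind chemokines without the usual signalling, gave no call in any of these tests by edgeR, with 0 to 2 at an unadjusted p below 0.05, and 1 by DESeq2, Ackr1 in TG lungs after HDM.

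Type 2 cytokines are known inducers of eotaxins and of the CCR4 ligands. Of 12 genes on the type 2 list, 7 or 8 were tested in each comparison. Il33, an alarmin of the epithelium, was the only one that edgeR called, and not between the genotypes under PBS (adjusted p = 0.786). DESeq2 also called Il4ra after HDM in WT lungs and in the interaction. Il33 was at 115 and 145 CPM in WT PBS, 594 and 525 in WT HDM, 152 and 144 in TG PBS, and 262 and 251 in TG HDM. Il33 rose 4.29-fold in WT lungs (adjusted p = 5.58e-07) and 1.76-fold in TG lungs (adjusted p = 0.0155; 0.164 and 0.231 without TG PBS library 1 or 2), and the interaction was -1.31 ± 0.23 (adjusted p = 0.00435). It was 2.13-fold lower in the libraries labelled TG under HDM (adjusted p = 0.00759). This call was lost without either WT HDM library, where few of all genes were called. With one library left out, this log2 difference ran from -1.17 to -1.02. Il13 and Il4, the cytokines that act through STAT6, were close to the limit of detection. Il13 had 28 and 9 counts in WT HDM and 0 and 2 in TG HDM, and Il4 had 8 and 48 counts in WT HDM and 6 in each TG HDM library. By quantitative PCR, the study reported weaker induction of both, and lower Il33, in HDM-treated TG than in HDM-treated WT lungs.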

How the data were processed

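Lung RNA of 4 mice per group was pooled, amplified and sequenced as 2 libraries (50-cycle single reads). Per the labels and the methods of the study, the authors aligned the reads to mm10 with TopHat and counted the reads that fell within coding sequence, per gene, with Bioconductor packages and custom R programs, with versions not given in the sources used here, and deposited raw read counts for 23469 Entrez identifiers. Genes without coding sequence, such as Xist, also hold counts, so that reads outside coding sequence may have been counted. Libraries were grouped by their titles. Names came from RefSeq GRCm38.p6 for 23372 identifiers and from tables of the study for 7, and transcript lengths from GENCODE M21 for 21145.

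Each comparison was fitted with edgeR 4.0.16 (quasi-likelihood test, R 4.3.3) on its own 4 libraries, with TMM normalization, filterByExpr with a count minimum of 10, and Benjamini-Hochberg adjustment over all genes tested (threshold 0.05). The interaction used all 8 libraries. The 95% intervals come from the fitted standard errors. Levels are CPM on the TMM scale of all 8 libraries, and likeness used log2 CPM with a prior count of 2. All 10 chemokines are described, other genes were named where they passed a test on a listed pathway (at most 5 per list and comparison), and genes most alike by the 3 highest correlations. Cell type markers come from fixed lists. The values of 1 gene of the receptor list are not reported here. Ccl25, Ccl26, Ccl1, Ackr1, Ccr4, Chia1, Il4, Il13 and marker genes beyond this rule were named after their values were seen. The members, lists and tests were chosen with earlier results of these data known. Scripts were tested on simulated data. DESeq2 1.42.0, median-ratio size factors, no filter, a replicate block, all 8 libraries in one fit, a length offset (loess, span 0.5), library sizes without Rn45S and haemoglobin genes, and leaving out each library were the alternatives. Between replicates the counts varied beyond Poisson noise (mean chi-square per gene 13.1 to 28.2). Total counts of 5694928 to 11929374 set the precision, and intervals on counts cover counting error only.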

Additional observations from a re-analysis of the deposited data

Results flagged for a closer look

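By edgeR, the response to HDM was called different between the genotypes for 2 of the 10 chemokines, in a test of the difference itself (DESeq2 added Ccl9). For Ccl17 the log2 response in the libraries labelled TG was lower by a difference of -3.45 ± 0.59 (edgeR, adjusted p = 0.00345), and for Ccl22 the difference was -2.74 ± 0.55 (adjusted p = 0.0119). Ccl17 libraries of TG lungs were above those of WT lungs under PBS and below them under HDM. Of all genes tested, 40.3% under PBS and 48.2% under HDM also had no overlap between the genotypes. Treatment and sex cannot be told apart in either response, and the libraries of a group share 1 RNA pool.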

How the results depend on the processing

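All 10 calls after HDM in WT lungs were kept under every alternative and without any library. Of 606 refitted values of the 10 genes, 544 kept their direction and side of the threshold. The replicate numbers did not pair the libraries (correlation of deviations -0.021 to 0.032). With the replicate block, the calls under PBS, after HDM in WT, after HDM in TG and in the interaction stayed at 0, 10, 7 and 2, Ccl17 joined those under HDM (3 calls), and all genes called went from 98 to 45 under PBS and from 370 to 625 under HDM. The block ended the call of Ccl4 under PBS (adjusted p = 0.105). Between the genotypes under PBS, a fit of all 8 libraries gave 1 call (Ccl17), and leaving out a library gave 0 to 1. Under HDM, the length offset with the block gave 4 calls and leaving out a library 0 to 4. After HDM in TG lungs the length offset gave 3 calls and leaving out a library 2 to 6. The interaction gave 1 to 3 without a library. With the length offset, alone and with the block, the signs of Ccl6 under PBS (0.0069 and 0.0028), Ccl12 under HDM (-0.69 and -0.68), and Ccl17 (-0.72 and -0.73) and Ccl22 (-0.094 and -0.10) after HDM in TG reversed, as did Ccl7 in the interaction with the offset and the block (-0.17). None of these was past the threshold, and the cause was not tested.

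Signs also turned when a library was left out, for values not past the threshold. Under PBS, Ccl7 ran from -3.69 to 0.014, Ccl2 from -1.62 to 0.41, Ccl12 from -0.72 to 1.38 and Ccl6 from -0.22 to 0.073. Under HDM, Ccl12 ran from -0.088 to 0.17, Ccl11 from -1.43 to 0.15 and Ccl8 from -0.17 to 0.14. After HDM in TG lungs, Ccl17 ran from -0.048 to 0.81 and Ccl22 from -0.16 to 0.43. In the interaction, Ccl7 ran from -0.75 to 2.95, Ccl2 from -1.40 to 0.63 and Ccl12 from -1.37 to 0.72.

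Counts of all genes called moved by over 1.5 times. Under PBS, 98 became 223 with DESeq2, 306 with no filter and 75 to 432 without a library. Under HDM, 370 became 922, 1055 and 6 to 1595, and also 771 with all 8 libraries and 157 with the length offset, which turned 279 higher and 91 lower into 83 and 74. After HDM in WT lungs, 1020 became 1588 with no filter and 652 to 1661 without a library. In TG lungs, 2079 became 277 to 2676 without a library, and the length offset turned 1272 higher and 807 lower into 696 and 712. In the interaction, 279 became 680 with DESeq2, 675 with no filter and 138 to 721 without a library, and the offset turned 167 higher and 112 lower into 79 and 134. In PBS lungs the depth limits Ccl24, which had 1 count in each group.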
